A study of Mus musculus with 2 samples.

Results

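The cells described here are skin fibroblasts in which transcripts of Angpt4, Myoc, C7 and Adamtsl2 outweighed those of 3 other marker groups. They were chosen by their own measured counts. A cell with 200 to 45000 unique molecular identifiers (UMIs, each standing for 1 captured molecule), 100 to 7500 detected genes and at most 10% mitochondrial UMIs entered the fibroblast gate when Col1a1, Col1a2, Col3a1 and Dcn together made up at least 2% of its UMIs. A gated cell was a member when its summed UMIs of Angpt4, Myoc, C7 and Adamtsl2 reached 3 and exceeded each of the sums for Pla1a, Efhd1, Ptx3 and Anxa3, for Tnmd, Masp1, Slit2 and C1qtnf3, and for Cpz, Pla2g5, Fgfr4 and Clec11a. These criteria held for 472 of the 4270 gated cells and of the 17492 cells that passed the filter, namely 144 wildtype and 328 Eppk1-/- cells. The other groups, named below by their first gene, held 1809 (Pla1a), 703 (Tnmd) and 811 (Cpz) cells.

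Fibroblasts of the dermis and of the fascia below it lay down and remodel the collagen and elastic fibre network of skin, and they differ by depth and by the structure they surround. Myoc encodes myocilin, a secreted glycoprotein best known from the trabecular meshwork of the eye. Angpt4 is a ligand of the endothelial receptor Tek, C7 is a terminal component of complement, and Adamtsl2 is a secreted protein that binds fibrillin microfibrils.

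Dorsal skin was taken as a single punch of 6 mm from each of 2 untreated mice, 1 wildtype C57BL/6J and 1 Eppk1-/- backcrossed into that strain, whose ages are not given. Eppk1 encodes epiplakin, a cytoskeletal linker protein of the plakin family that binds keratin filaments. Dissociated cells were fixed and read with a probe-based single-cell assay, in which pairs of probes against each gene are ligated and counted, and the libraries carried separate sample barcodes. With 1 library per genotype there was no replicate, so no difference between genotypes could be tested: all intervals below are 95% intervals that cover counting error only, and the genotype cannot be told apart from the mouse, the punch or the library.

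The members had a median of 8457 UMIs per cell in the wildtype library and 6402.5 in the knockout library, with 1357212 and 2418072 UMIs in total. The targeted gene was read first. Eppk1 stood at 98.98 counts per 1000000 UMIs (CPM, with an interval of 82.9 to 117) in wildtype members and at 21.6 CPM (16.1 to 28.3) in knockout members, a log2 ratio of -2.19 (-2.69 to -1.73). In keratin-rich cells, where epiplakin is mainly made, its level was 4193 CPM in the wildtype library and 1064 CPM in the knockout library. Eppk1 was thus lower in the library labelled knockout in both cell types and was not at 0, and where its probes lie relative to the altered part of the gene is not given in the sources used here.

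Among the genes that chose the members, Myoc contributed most of the counts. Myoc UMIs were found in 135 of 144 wildtype members (93.8%) and 307 of 328 knockout members (93.6%), with a median of 21.5 and 23 UMIs per cell, and supplied 86.2% and 90.5% of all UMIs of the 4 genes. Angpt4 was detected in 44.4% and 35.98% of members, C7 in 43.1% and 27.1%, and Adamtsl2 in 36.8% and 14.6%. Myoc was therefore the common feature, and each of the other genes was seen in a minority of members in both libraries. Summed over members, Myoc stood at 3614 and 4846 CPM in wildtype and knockout, Angpt4 at 214 and 268 CPM, C7 at 236 and 175 CPM, and Adamtsl2 at 127 and 63.8 CPM. These values are a description, because the rule used them. In GRCm38 coordinates, Myoc lies at chr1:162639155-162649693 and Angpt4 at chr2:151911210-151945337, both on the plus strand. Adamtsl2 lies on the plus strand at chr2:27079379-27108981, C7 on the minus strand at chr15:4988762-5063740, and Eppk1 on the minus strand at chr15:76101481-76120195.

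Because members of the wildtype library were read more deeply, the shares were also taken after thinning each cell to 2000 UMIs, which left 132 wildtype and 312 knockout members and dropped 12 and 16. Myoc was then found in 90.2% and 92.3% of members and Angpt4 in 21.2% (14.6 to 29.2) and 22.8% (18.2 to 27.8). C7 was found in 29.5% (21.9 to 38.1) of wildtype and 15.4% (11.6 to 19.9) of knockout members, and Adamtsl2 in 17.4% (11.4 to 24.99) and 8.97% (6.05 to 12.7). The members were chosen by these UMIs before thinning, so the shares are a description and no difference between genotypes is read from them. In keratin-rich cells thinned in the same way, Myoc had a UMI in 2.35% of 2468 wildtype cells and 3.54% of 2005 knockout cells, against median unthinned depths of 4770 and 4791 UMIs. Angpt4, C7 and Adamtsl2 had a UMI in at most 0.0499% of those cells in either library. Some cells rich in the keratin genes Krt15 and Krt5 also held Myoc, so the keratin-rich share is no clean background for that gene. In the other gated fibroblasts its share was 10.9% and 15.5%.

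**Figure D1:**
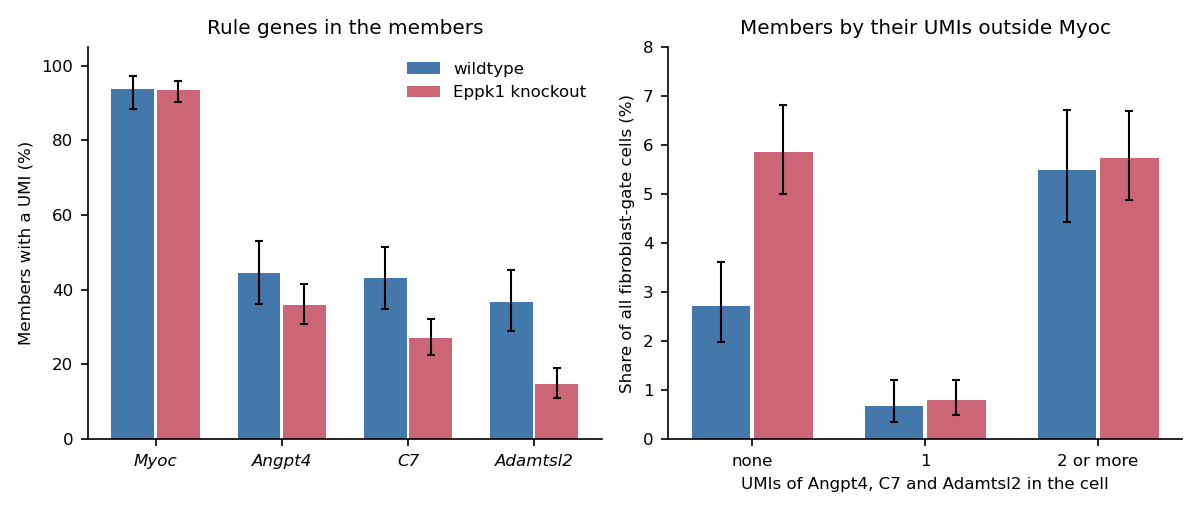
The left panel plots the percentage of members with at least 1 UMI of Myoc, Angpt4, C7 or Adamtsl2 in each library, with 95% Clopper-Pearson intervals, and the right panel plots the percentage of fibroblast-gate cells that were members with 0, 1 or at least 2 UMIs of Angpt4, C7 and Adamtsl2 together. Myoc was in over 93% of members in both libraries, and the members with at least 2 of the other UMIs made up 5.48% and 5.74% of gated cells while those with Myoc alone made up 2.71% and 5.86%.

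Members made up 8.87% (Clopper-Pearson interval 7.53 to 10.4) of gated wildtype fibroblasts and 12.4% (11.2 to 13.7) of gated knockout fibroblasts. The gate itself took in 18.3% (17.5 to 19.1) of wildtype and 30.7% (29.7 to 31.7) of knockout cells, so that members were 1.62% (1.37 to 1.91) and 3.81% (3.41 to 4.23) of all cells. These shares were also taken for the kinds of members that the rule genes separate, as a description. Those without a UMI of Angpt4, C7 or Adamtsl2 numbered 44 wildtype cells, 2.71% (1.98 to 3.62) of the gate, and 155 knockout cells, 5.86% (4.99 to 6.82). Members with at least 2 UMIs of those genes numbered 89 and 152, or 5.48% (4.43 to 6.71) and 5.74% (4.89 to 6.70) of the gate. The Myoc-only cells were also shallower, with median depths of 3574.5 and 4644 UMIs against 9853 and 8140 for cells with at least 2 of the other UMIs, and the part of depth in this split was not tested.

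Few members lay at the threshold. The summed UMIs of the 4 genes were exactly 3 in 2 wildtype and 4 knockout members, and 1 wildtype and 2 knockout cells stopped just outside, with a sum of 2 that was the largest of the 4 sums. The median sum was 26 in both libraries. A larger number of cells reached a sum of 3 without its being the largest, 162 in the wildtype and 321 in the knockout library, and in 130 and 248 of them the sum for Pla1a, Efhd1, Ptx3 and Anxa3 was ahead. Most of the cells left out in this way thus had the Pla1a group's sum ahead, and how far ahead was not measured.

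Fibroblast genes that the rule did not use were also present in the members, which the gate had already chosen by collagen and decorin. All 15 further fibroblast markers were measured at 100 UMIs or more in the members, a minimum that 10 of 15 keratinocyte markers reached too. Among them was Dpt, which encodes the matrix protein dermatopontin, at 5886 CPM in wildtype and 7899 CPM in knockout members. The fibroblast list summed to 23578 and 24723 CPM in members, against 288 and 345 CPM in keratin-rich cells. Lists of markers of other cell types were present in part. The Schwann cell list summed to 74.6 and 65.5 CPM, most of it from the myelin gene Mbp, with 4 of 9 markers at 0 in both libraries, among them Sox10, Foxd3 and Gpr37l1. The endothelial list summed to 160 and 177 CPM, led by Tek at 88.6 and 112 CPM, with 5 of 11 markers at 0 in the wildtype and 4 in the knockout library, Egfl7, Tie1 and Vwf in both, and to 236 and 329 CPM in the other gated fibroblasts. The melanocyte list summed to 130 and 156 CPM, nearly all from Mitf, with 3 of 6 markers at 0 in the wildtype and 4 in the knockout library, Tyr, Dct and Tyrp1 in both. Each list was thus absent in part and present in part. Sox2, Corin, Notum, Prom1, Alx4 and Sox18, markers of the dermal papilla, were also at 0. The pericyte list summed to 113 and 180 CPM, led by Abcc9, with Higd1b at 0 in both libraries and Rgs5 at 0 in the wildtype library. It summed to 219 and 176 CPM in the other fibroblasts, and of 6 markers compared 2 were higher in members and 1 lower. Some lists summed higher. The papillary fibroblast list stood at 653 and 762 CPM, the endoneurial fibroblast list at 526 and 586 CPM and the sebocyte list at 678 and 682 CPM. In the other fibroblasts these were 921 and 782, 653 and 590, and 639 and 513 CPM. The fascia list summed to 5830 and 5620 CPM, against 6663 and 9765 CPM there.

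Transcripts of keratinocytes were spread thinly over the members and concentrated in a few. The median member held 0.0386% of its UMIs in the keratinocyte list in the wildtype library and 0.0375% in the knockout library. The 15 keratinocyte markers measured summed to 2025 CPM in wildtype and 1062 CPM in knockout members, and 6 wildtype and 9 knockout members held 78.1% and 51.3% of them. The macrophage markers summed to 685 and 616 CPM with Cd74 highest at 334 and 333 CPM, and 3 members of each library held 80.9% and 64.0%. Skeletal muscle markers summed to 332 CPM in wildtype members, 90.2% of it from 1 cell, and to 38.1 CPM in knockout members. Apart from the skeletal muscle list in the knockout library, most of the UMIs of these lists thus came from a small number of cells, and no doublet caller was run.

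Against the other gated fibroblasts, the members were higher in Gfra1, Cxcl14, Sfrp1, Angptl7, Mgp and Gpx3 and lower in Igfbp2, Igfbp5, Ltbp1 and Tmem132c in both libraries. Of 10418 genes compared, with the 16 rule genes and the 4 gate genes left out, 191 (1.83%) were at least 1 log2 unit higher in members in both libraries and 266 (2.55%) at least 1 log2 unit lower. Among genes detected in at least 25% of the members of a library, a limit that removes genes low in members, these counts were 95 and 21. Because the members were drawn from the same counts, these ratios describe the cells and were not tested. The 2 libraries are given side by side throughout, wildtype first.

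Gfra1, the co-receptor for the neurotrophic factor GDNF, stood at 245 and 136 CPM in members and at 19.0 and 8.50 CPM in the other fibroblasts, log2 ratios of 3.69 and 4.001. Npy1r, a receptor for neuropeptide Y, and Epha3, an ephrin receptor, had log2 ratios of 2.13 and 2.54, and of 2.28 and 1.95. The chemokine gene Cxcl14 stood at 1245 and 1005 CPM against 152 and 144 CPM, log2 ratios of 3.03 and 2.81. These genes do not stand for their lists: of 18 tested neurotrophin and axon guidance genes 2 were higher and 3 lower, with median log2 ratios of -0.75 and -0.64. Cxcl14 was the only 1 of 20 tested chemokine and cytokine genes to pass the log2 limit upwards, while 3 passed it downwards. F3, the tissue factor that starts coagulation, stood at 1107 and 644 CPM (2.33 and 2.26).

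Some genes of Wnt signalling stood out, in both directions. Sfrp1, a secreted antagonist that binds Wnt ligands, stood at 883 and 463 CPM in members against 137 and 85.1 CPM, log2 ratios of 2.69 and 2.44. Of 21 tested Wnt genes, 4 were higher, with the receptors Fzd4 (1.93 and 1.56) and Fzd1 (1.32 and 1.18) and the antagonist Sfrp4 (1.54 and 1.19) beside Sfrp1, and 3 were lower, Axin2, Wnt2 and Rspo3. Axin2, a known target of Wnt signalling, had log2 ratios of -2.50 and -1.52, and Apcdd1, a Wnt antagonist and target that stood in another list, had -1.80 and -1.46. Members thus carried more of these 4 genes and less of Axin2 and Apcdd1 than the other fibroblasts, while the median log2 ratios of the Wnt list were -0.06 and 0.02. Sfrp2, the most abundant gene of the list in wildtype members, had 3.35 and 0.82 and did not pass in both libraries. Among 21 tested genes of BMP signalling, 0 were higher and 3 were lower, the antagonist Grem1 (-3.01 and -3.92) and the ligands Bmp7 and Bmp3.

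Among vessel-related ligands other than Angpt4, members were high in Angptl7, a secreted angiopoietin-like protein, at 103 and 159 CPM against 2.92 and 2.63 CPM, log2 ratios of 5.12 and 5.90. Angpt1, the main activating ligand of Tek, had log2 ratios of 1.96 and 1.83. The VEGF co-receptor Nrp1 was higher (1.62 and 1.27) and its relative Nrp2 lower (-2.18 and -1.79). Of 15 tested genes of this family, 4 were higher and 1 was lower, so that most of the list did not pass 1 log2 unit in both libraries. Flt1, which encodes a VEGF receptor, completed the higher genes (2.68 and 2.52).

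Some matrix genes differed between members and the other fibroblasts in both libraries. Smoc2, a calcium-binding matricellular protein, stood at 851 and 1410 CPM (1.93 and 2.64), and Mgp, an inhibitor of calcification, at 716 and 1673 CPM against 185 and 334 CPM (1.96 and 2.32). Podn, a small leucine-rich proteoglycan, had log2 ratios of 2.39 and 1.81, and 3 of 9 tested proteoglycans of this class were higher and 0 lower. Col8a1 and Col8a2, the chains of the network-forming type VIII collagen, were among 4 of 21 tested collagens that were higher, with log2 ratios of 2.30 and 3.39 and of 2.81 and 3.78. The fibrillar collagen Col1a1, which the gate used, stood at 10814 and 10552 CPM in members and at 39510 and 33986 CPM in the other fibroblasts. It stood at 21617 and 12273 CPM in the Pla1a group, and nothing is read from it. Among microfibril and elastic fibre genes, 2 of 25 were higher and 3 lower, the latter Ltbp1, Efemp1 (-1.62 and -1.98) and Fbln5 (-1.74 and -1.18). Ltbp1, which stores latent TGF-beta in the matrix, stood at 48.0 and 64.3 CPM against 296 and 276 CPM. Of 19 tested metalloproteinases and inhibitors, 0 were higher and 1 was lower.

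Some genes of the insulin-like growth factor system differed as well. Igf1 itself stood at 429 and 445 CPM in members (1.19 and 1.67). The binding protein gene Igfbp2 stood at 0.739 and 0.829 CPM against 247 and 167 CPM, log2 ratios of -7.80 and -7.33. Igfbp5 stood at 375 and 1680 CPM against 2260 and 6695 CPM (-2.59 and -1.99). Members were therefore low in these 2 binding proteins in both libraries, and of the 13 genes tested in this list 2 were higher and 3 lower.

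The remaining genes that the naming rule picked covered several functions. Higher in members were Tns3, a focal adhesion protein (2.70 and 2.74), Clu, the extracellular chaperone clusterin (2.85 and 2.52), Emb, an immunoglobulin-family glycoprotein (2.30 and 2.93), Fxyd6, a regulator of the sodium pump (2.21 and 3.18), the globin Cygb (2.09 and 2.32) and the imprinted gene Mest (2.00 and 1.98). Lower in members were Tmem132c (-4.83 and -3.24), the metalloproteinase gene Mmp27 (-3.52 and -2.27), the claudin gene Cldn10 (-4.76 and -2.18), the aldehyde dehydrogenase gene Aldh3a1 (-3.11 and -1.95), the cytochrome P450 gene Cyp2f2 (-1.94 and -1.94), the chemokine gene Ccl19 (-2.45 and -1.87) and the serpin gene Serpina3c (-1.97 and -1.86). Each of these lower genes was highest in the Cpz group in both libraries: Tmem132c stood at 184 and 169 CPM there, and Cldn10 at 293 and 356 CPM. Gpx3, a secreted glutathione peroxidase, was an abundant transcript of the members at 30664 and 19168 CPM, against 11546 and 5352 CPM in the other fibroblasts.

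**Figure D2:**
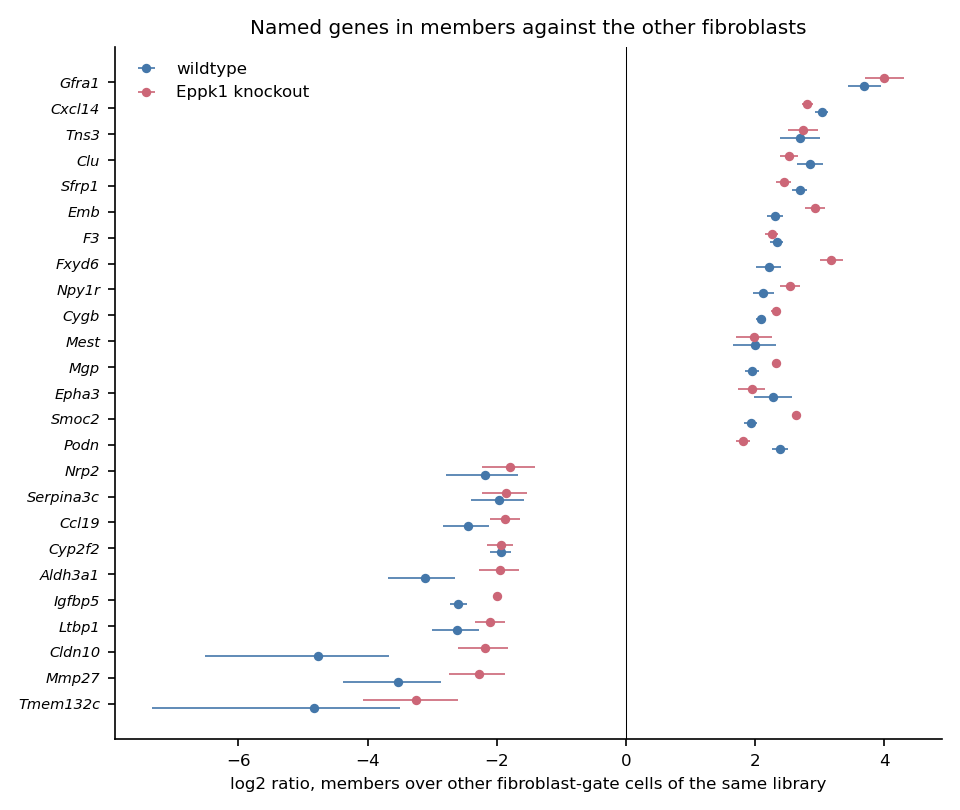
Each point is the log2 ratio of a gene's level in members over the other fibroblast-gate cells of the same library, for the 25 genes picked by the naming rule, with horizontal 95% counting intervals and one colour per library. Gfra1 lay at 3.69 (wildtype) and 4.001 (knockout) on the higher side and Tmem132c at -4.83 and -3.24 on the lower side, and all 25 genes had the same sign in both libraries, as the naming rule requires.

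Over 6064 genes, the log2 profile of the members was closest to that of the Pla1a group, with Pearson's r across genes of 0.927 in the wildtype and 0.896 in the knockout library. It was 0.885 and 0.881 with the Tnmd group and 0.770 and 0.831 with the Cpz group. Genes are not independent replicates, and these values are descriptive.

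The members were not uniform. The 4 rule genes split them into cells with at least 2 UMIs of Angpt4, C7 and Adamtsl2 and Myoc-only cells without any. A small share of the other genes differed between these cells, counted only where both libraries passed the limit. Of 6064 genes, 55 (0.907%) were at least 1 log2 unit higher and 51 (0.841%) at least 1 log2 unit lower in the former in both libraries. The genes named in this and the next paragraph were picked with their values in view, the split used the rule genes, and nothing here was tested. Cells with the other rule genes were higher in Tgm2, a protein cross-linking enzyme, at 950 CPM against 239 CPM in wildtype and 625 against 109 CPM in knockout members. Ccn5, a matricellular protein, stood at 1988 against 576 CPM and 2102 against 273 CPM. Fmo2, a flavin monooxygenase, stood at 157 against 21.7 CPM and 132 against 14.7 CPM, and Cdh2, N-cadherin, at 67.9 against 10.9 CPM and 77.1 against 14.7 CPM. Col8a1, Col8a2, Clu and Cxcl14 followed the same direction, so that several genes that set members apart from other fibroblasts were higher in the cells that held more than Myoc.

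The Myoc-only cells were higher in another set. Postn, the matricellular protein periostin, stood at 1300 CPM in Myoc-only against 363 CPM in members with at least 2 of the other UMIs in the wildtype library and at 1525 against 334 CPM in the knockout library. The metalloproteinase gene Mmp2 (1720 against 688 CPM, and 2195 against 971 CPM), the collagen-degrading protease gene Ctsk (1402 against 549 CPM, and 2017 against 674 CPM) and the Wnt antagonist gene Dkk2 (123 against 8.11 CPM, and 111 against 8.19 CPM) had the same direction. Aldh3a1 stood at 116 against 1.01 CPM and at 94.3 against 8.19 CPM, and 1 cell held 17 of its 33 UMIs in wildtype members. These genes were thus higher in the Myoc-only cells of both libraries, and Mmp2 and Ctsk were present in the members with at least 2 of the other UMIs too. The 11 wildtype and 21 knockout members with 1 such UMI entered neither side. Lists of other cell types stood in both directions between the same cells. The macrophage list summed to 2843 against 124 CPM in wildtype and 1011 against 445 CPM in knockout members, and the keratinocyte list to 3817 against 1673 CPM and 1142 against 1078 CPM. The endothelial list summed to 243 against 131 CPM and to 234 against 138 CPM. For the T and NK cell list the sums were 196 against 14.2 CPM and 34.3 against 0.682 CPM. The pericyte list was lower in the Myoc-only cells, at 86.9 against 121 CPM and 138 against 203 CPM. So was the skeletal muscle list, at 25.4 against 34.5 CPM and 27.0 against 44.3 CPM. Few cells carried the macrophage and keratinocyte sums: 3 wildtype members, all Myoc-only, held 80.9% of the macrophage list there, and of the 6 wildtype and 9 knockout members with at least 1% of their UMIs in the keratinocyte list only 2 and 3 were Myoc-only. The MHC class II gene H2-Eb1 stood at 525 against 23.3 CPM and at 413 against 53.2 CPM. The part of these transcripts in the split was not tested.

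Between the genotypes, the members of the knockout library were higher in Igfbp5, Penk, Mgp, Wnt5a and C3 and lower in Prg4, Sfrp2, Tmem158, Flt1 and a set of clock output and cholesterol synthesis genes. A gene was called when its log2 ratio of knockout over wildtype was at least 0.5 in size and its counting interval excluded 0. Of 6081 genes with at least 100 UMIs in members, 401 (6.59%) were called higher and 315 (5.18%) lower, and the median log2 ratio was 0.05. These include 17 rule and gate genes, of which Pla1a, Slit2 and Clec11a were called higher and Tnmd, Masp1 and Adamtsl2 lower, and nothing is read from them. With TMM scaling of the summed counts in edgeR the split was 294 higher and 378 lower, so the balance of directions depended on the scaling. Members with at least 2 UMIs of Angpt4, C7 and Adamtsl2 left 4531 genes to test. In them 181 of the 401 and 175 of the 315 were called again in the same direction and 0 in the opposite one. When each cell was thinned to 2000 UMIs before the rule was applied, the rule chose 113 wildtype and 275 knockout members. All values after thinning given from here on are from these members. With 1392 genes left to test, 50 of the 401 and 57 of the 315 were called again. With a gate of 5% and 1416 genes these were 63 and 57, and 1 of the genes first called lower was called higher. That gate, which left 40 wildtype and 95 knockout members, moved several of the named values by over 1.5 times: the log2 ratio became -0.86 for Prg4, -5.19 for Sfrp2, -1.19 for Eppk1 and 0.52 for Nnt.

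**Figure D3:**
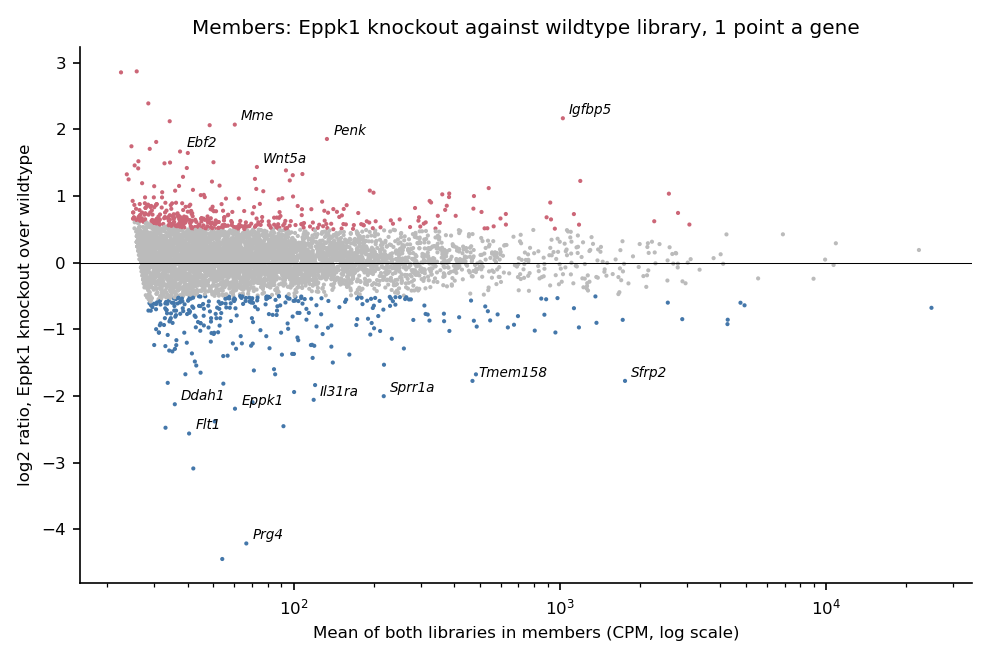
Each point is 1 of 6081 genes in the members, plotted by its mean level in CPM (logarithmic axis) and its log2 ratio of Eppk1 knockout over wildtype, with 401 called higher in red, 315 called lower in blue and the rest in grey. Igfbp5 lay at 2.16 and Sfrp2 at -1.77 among the abundant genes, and the points widen at low levels.

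Igfbp5, which encodes a secreted binding protein for insulin-like growth factors, had the largest log2 ratio among genes called higher that were detected in at least 25% of the members of a library. It stood at 375 CPM (343 to 409) in wildtype and 1680 CPM (1629 to 1733) in knockout members, a log2 ratio of 2.16 (2.03 to 2.30). In members with at least 2 of the other rule-gene UMIs the log2 ratio was 2.72, and in the other gated fibroblasts it was 1.57. Igfbp5 was therefore higher in the knockout library across the gated fibroblasts, and in members its level stayed below that of the other fibroblasts in both libraries. It lies on the minus strand of chromosome 1 at chr1:72857932-72874884.

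Penk, the precursor of enkephalin peptides, stood at 57.6 and 209 CPM in wildtype and knockout members, a log2 ratio of 1.85 (1.52 to 2.22), against 0.35 in the other fibroblasts. Mme, neprilysin, a membrane peptidase that cleaves enkephalins, stood at 22.9 and 97.4 CPM (2.07, 1.54 to 2.68), against 0.56 in the other fibroblasts. Penk and Mme thus had larger ratios in members than in the other fibroblasts as a whole, a difference that was not tested. The groups among these went both ways for Penk. It stood at 102 and 228 CPM in the Cpz group, 50.9 and 61.1 CPM in the Pla1a group and 319 and 291 CPM in the Tnmd group. Wnt5a, a ligand that acts mainly outside the beta-catenin pathway, stood at 39.2 and 107 CPM (1.43, 1.01 to 1.90). Ebf2, a transcription factor of adipocyte precursors, stood at 17.7 and 57.2 CPM, and its log2 ratio was 1.67 over all members and 0.93 in those with at least 2 of the other UMIs. Sdf2l1 (56.9 and 142 CPM) and Creld2 (42.1 and 101 CPM), both proteins of the endoplasmic reticulum that serve protein folding, had log2 ratios of 1.31 and 1.25. Sgcd, a sarcoglycan, and Abca8b, a lipid transporter, had 1.38 and 1.33. In the other fibroblasts the log2 ratios were 1.12 for Wnt5a, 1.89 for Ebf2, 0.91 for Sdf2l1 and 0.94 for Creld2. Those of Sgcd and Abca8b were 0.82 and 0.77 there.

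Nnt, a mitochondrial enzyme that makes NADPH, stood at 19.2 CPM in wildtype and 61.0 CPM in knockout members, a log2 ratio of 1.64 (1.06 to 2.33). It was also higher in the knockout library outside the members, with a log2 ratio of 1.82 in the other fibroblasts and 5.19 against 15.3 CPM in keratin-rich cells. C57BL/6J mice are known to carry a deletion in Nnt. The knockout mouse was backcrossed to C57BL/6J, and for this gene strain background and genotype cannot be told apart.

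Among the genes lower in knockout members, Prg4, the lubricating proteoglycan lubricin of joints and fascia, stood at 126 CPM in wildtype and 6.63 CPM in knockout members, a log2 ratio of -4.21 (-5.09 to -3.51), and 1 wildtype cell held 25.1% of its UMIs in that library. Sfrp2, a secreted Wnt modulator, stood at 2722 CPM (2635 to 2811) and 796 CPM (761 to 832), a log2 ratio of -1.77 (-1.85 to -1.69). Its UMIs were in 31.2% of wildtype and 24.7% of knockout members. Tmem158, a membrane protein, stood at 728 and 213 CPM (-1.77, -1.93 to -1.62). In the other fibroblasts as a whole the log2 ratios of Sfrp2 and Tmem158 were 0.75 and 0.30, a difference that was not tested, but the groups among them went both ways. In the Tnmd group Sfrp2 stood at 491 CPM in wildtype and 12.5 CPM in knockout cells, and Tmem158 at 117 and 87.3 CPM. A lower Sfrp2 level in the knockout library was thus shared with the Tnmd group.

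Flt1 stood at 69.4 and 11.6 CPM (-2.56, -3.24 to -1.96), and its log2 ratio in the other fibroblasts was -2.40. Il31ra, a receptor subunit for the itch cytokine interleukin 31, stood at 192 and 46.0 CPM. Ddah1, an enzyme that degrades an inhibitor of nitric oxide synthesis, stood at 58.4 and 13.3 CPM. Fxyd5, a regulator of the sodium pump, stood at 114 and 26.5 CPM. In the other fibroblasts the log2 ratios of Il31ra, Ddah1 and Fxyd5 were -1.88, -0.71 and -1.35. The lower genes that the naming rule picked also included the cornified envelope gene Sprr1a (349 and 87.1 CPM) and the keratin gene Krt77 (188 and 52.7 CPM). For Sprr1a 1 cell held 49.0% of the wildtype and another 56.7% of the knockout UMIs, and without both the log2 ratio was -2.24. For Krt77 1 cell held 51.0% of the wildtype UMIs, and without the richest cell of each library the log2 ratio went from -1.84 to -0.91. With a gate of 5% both turned, to 0.18 and 0.26, as did Krt77 with a gate of 1% (0.0187). Of the 315 genes called lower, 54 (17.1%) were at least 3 times higher in keratin-rich cells than in members, against 388 of all 6081 genes tested (6.38%). With the 5% of gated cells richest in UMIs of other cell types left out, 401 genes were called higher and 292 lower, of which 341 and 261 were among the original calls.

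**Figure D4:**
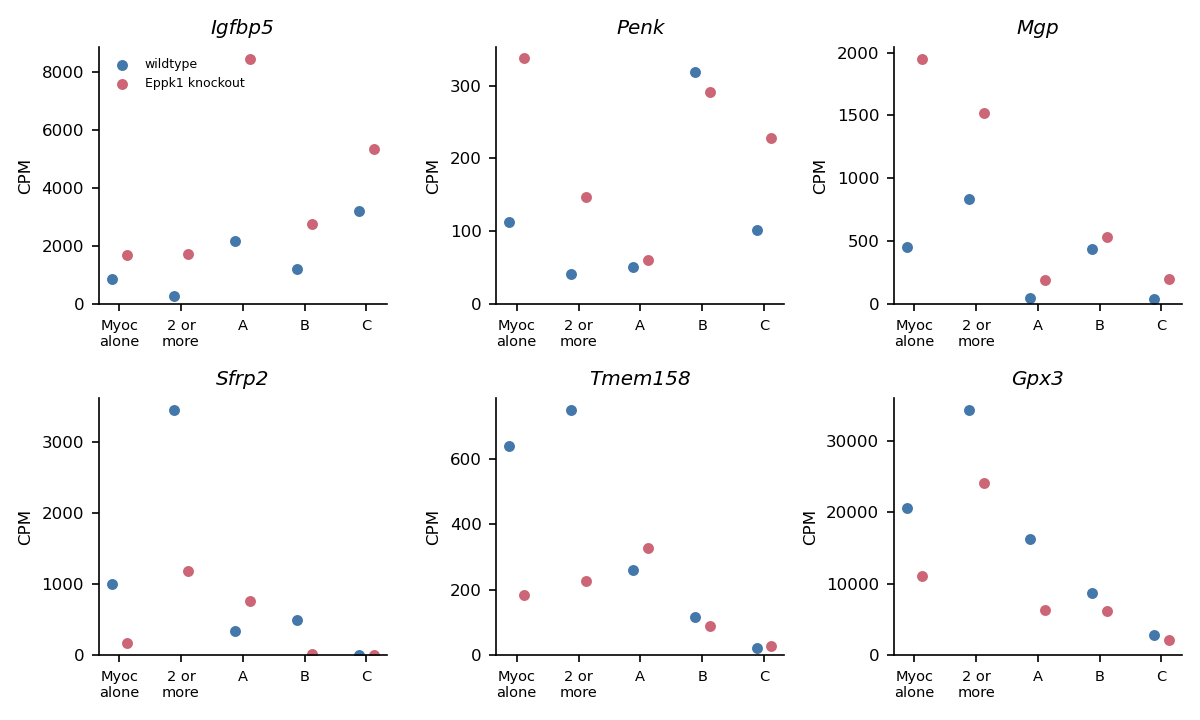
For Igfbp5, Penk, Mgp, Sfrp2, Tmem158 and Gpx3, points give the level in CPM in the wildtype and the knockout library for members with Myoc alone, members with at least 2 UMIs of Angpt4, C7 and Adamtsl2, and the Pla1a, Tnmd and Cpz groups, with no error bars. Sfrp2 stood at 3455 CPM in wildtype and 1184 CPM in knockout members with the other rule genes at 338 and 761 CPM in the Pla1a group and at 491 and 12.5 CPM in the Tnmd group, whereas Igfbp5 was higher in the knockout library in every group shown.

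The gene lists describe these differences by function, and each list's counts can be set against the 6.59% called higher and 5.18% called lower among all genes. The list medians are of log2 ratios of knockout over wildtype in members. Genes of circadian clock output, which are transcribed rhythmically by the clock, stood lower: of 6 tested, 4 were called lower and 0 higher, with a median of -0.62 in members and -0.79 in the other fibroblasts. The nuclear receptor gene Nr1d1, a repressor in the clock, stood at 284 and 139 CPM (-1.03), its relative Nr1d2 at 138 and 85.4 CPM (-0.69), the transcription factor gene Dbp at 42.1 and 20.3 CPM (-1.05) and Cry2 at 113 and 78.0 CPM (-0.54). Per1, with 214 and 231 CPM (0.11, -0.10 to 0.32), and Tef (-0.16) were not called. Of 5 tested genes of the opposite clock phase, 1 was called higher, Npas2 (0.56, but -0.22 with a gate of 5%), and the list median was 0.34. The hour at which each mouse was sampled is not given in the sources used here.

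Genes of the cholesterol list also stood lower over all members: of 11 tested, 7 were called lower and 0 higher. The medians were -0.58 in members and -0.75 in the other fibroblasts. The kinds of members differed. The list summed to 1167 and 589 CPM in members with at least 2 of the other UMIs, and to 942 and 1143 CPM in Myoc-only members. With a gate of 5% the log2 ratio of the list gene Fdps turned to 0.0854. Srebf2, the transcription factor that drives the pathway, stood at 174 and 82.9 CPM (-1.07). The enzymes Sqle and Cyp51 had log2 ratios of -1.33 and -1.67 and the pathway's early enzyme Hmgcs1 -0.58. Interferon-stimulated genes had 6 of 18 called lower and 0 higher, with medians of -0.38 in members and -0.53 in the other fibroblasts. Bst2, an antiviral membrane protein, stood at 1079 and 532 CPM (-1.02), and Isg15, Oasl2, Irf7 and Ifit3 had log2 ratios between -0.96 and -1.24. In each of these lists the other fibroblasts had a median of the same sign, so neither set was shown to be particular to the members.

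Growth factor and matrix lists were mixed. In the insulin-like growth factor list 3 of 10 genes were higher, with Htra1, a protease that cleaves binding proteins (0.98), and Igf2r, the receptor that clears IGF2 (0.85), beside Igfbp5. Another 3 were lower, with Igfbp3 at 3710 and 2061 CPM (-0.85), Igfbp6 at 5757 and 3794 CPM (-0.60) and the binding protein protease Pappa2 (-0.83, but 0.26 after thinning and 0.68 with a gate of 5%). Binding proteins of 1 family thus stood in opposite directions. In the BMP list 4 of 17 were higher and 0 lower, with the ligands Gdf10 (5.91 and 45.6 CPM) and Bmp5 (8.86 and 48.1 CPM) and the antagonist Chrdl1 (130 and 269 CPM) among them. In the Wnt list 3 of 11 were higher (Wnt5a, Tcf4 and Dkk2, the last with 0.60 that became -0.0157 in members with at least 2 of the other UMIs) and 2 lower (Sfrp2 and Sfrp1), Sfrp1 with 883 and 463 CPM (-0.93). In the TGF-beta list 2 of 16 were higher, including the matrix protein gene Tgfbi at 643 and 1200 CPM (0.90), and 1 was lower.

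Of 24 microfibril and elastic fibre genes, 5 were higher and 2 lower. Eln, the elastin gene, stood at 318 and 635 CPM (0.998) and Adamtsl4 was higher as well, Fbln1 had 0.68 and Fbln5 0.62, while Adamtsl2, a rule gene, had -0.99. Collagens were near even, with 1 of 20 higher (Col5a3, 0.51) and 1 lower (Col12a1, -0.75). Of 10 small leucine-rich proteoglycans, 1 was lower, Fmod, which binds collagen fibrils, at 160 and 41.5 CPM (-1.94), and 0 were higher. Metalloproteinases and their inhibitors had 2 of 16 higher, with Mmp2 (0.57) among them, and 5 lower, with the inhibitor gene Timp3 at 5510 and 3043 CPM (-0.86). In the angiopoietin and VEGF list 4 of 14 were higher (Angptl1, Angptl7, Angpt1 and Vegfb, log2 ratios 0.58 to 0.87) and 3 lower (Flt1, Vegfc and Angptl4). Vegfb turned to -0.31 after thinning. Angptl7 depended on the choice of members: its log2 ratio was 0.63, and -1.53 with a collagen and decorin gate of 5%.

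C3, the central component of complement, stood at 1687 and 3454 CPM (1.03) and was 1 of 2 higher genes among 15 tested, with 1 lower, the rule gene Masp1, whose level the selection shaped. The median was -0.06 in members and 0.22 in the other fibroblasts, and the list's counts were near those over all genes. Of 17 chemokine and cytokine genes, 6 were higher and 3 lower, with a median of 0.43 in members and -0.12 in the other fibroblasts. The monocyte chemokine gene Ccl2 stood at 224 and 425 CPM (0.92), the eosinophil chemokine gene Ccl11 at 228 and 365 CPM (0.68) and Il6 at 195 and 306 CPM (0.65), while Csf1, the macrophage growth factor gene, stood at 670 and 404 CPM (-0.73). Immediate early genes, which respond to tissue handling, had 4 of 24 higher and 0 lower, with Egr1 at 2079 and 3485 CPM (0.74), and a median of 0.14 in members against -0.05 in the other fibroblasts. Their part in the cytokine result was not tested.

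Glucocorticoid-responsive genes went both ways, with 3 of 20 higher and 4 lower and a median of 0.03. The kinase gene Sgk1 stood at 265 and 432 CPM (0.70), and Tsc22d3, which encodes an anti-inflammatory leucine zipper protein, at 476 and 259 CPM (-0.88). The receptor gene Nr3c1 had 0.58 and the mitochondrial kinase gene Pdk4 -1.05, which turned to 0.37 after thinning. Of 13 adipogenic genes, 1 was higher (Ebf2) and 3 lower (Cebpa -0.94, which turned to 0.63 with a gate of 5%, Plin2 -0.67 and Ebf1 -0.53). Of the 15 fibroblast markers outside the rule, 2 were higher and 3 lower, among the latter the surface marker gene Cd34 at 3069 and 2024 CPM. Of 6 genes of reticular and preadipocyte fibroblasts, Mgp was higher (1.22) and 3 were lower, among them Gpx3 (-0.68) and Ly6a (-0.64). Of 8 neurotrophin and axon guidance genes, 2 were higher and 0 lower, namely the guidance ligand gene Sema3b (0.97) and the rule gene Slit2, whose level the selection shaped. The keratinocyte list had 7 of 10 lower and 0 higher, with Krt10 at 369 and 151 CPM and Krt14 at 139 and 141 CPM. With a gate of 5% the log2 ratios of 6 of the 7 turned: Sfn 1.34, Lgals7 0.18, Perp 0.28, Dsp 1.27, Ly6d 0.0748 and Krt77 0.26.

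**Figure D5:**
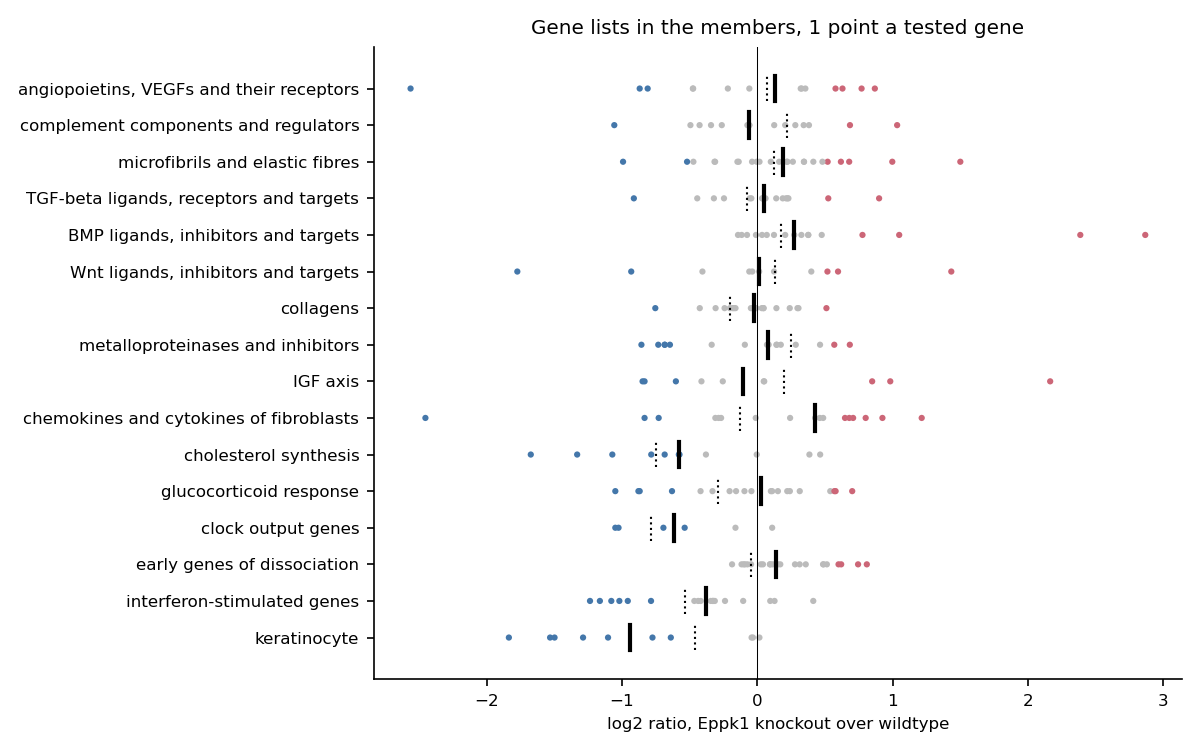
Each point is the log2 ratio of Eppk1 knockout over wildtype of 1 tested gene in the members, grouped by gene list, red where called higher, blue where called lower and grey otherwise, with a solid bar at the list's median in members and a dotted bar at the median of the same genes in the other fibroblasts. Clock output and cholesterol genes had medians of -0.62 and -0.58 with 4 of 6 and 7 of 11 genes called lower, and interferon-stimulated genes -0.38 with 6 of 18.

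Short stretches before the start of the clock and glucocorticoid genes are shown because they carry known response elements. In RefSeq windows from 250 bases before to 50 bases after each gene's start (GRCm38.p6, 32851 windows of 27025 genes, both strands), the E-box CACGTG, which the clock activators bind, was in 7.15% of windows, and the D-box TTATGNAA, which Dbp and Tef bind, in 3.38%. The palindromic glucocorticoid response element was in 3 windows, or 0.00913%, and in 1 of 21 glucocorticoid-responsive genes with a window, Sgk1. Of 10 clock output genes with a window, 4 held the E-box and 2 the D-box, and none of the 4 genes called lower held either. Over all 27025 genes, 8.09% held the E-box, 3.99% the D-box and 0.0111% the glucocorticoid response element. The Per1 stretch lies at chr11:69098771-69098800 and the Tef stretch at chr15:81802534-81802563, both on the plus strand, and capitals mark the E-box. The Sgk1 stretch lies at chr10:21993694-21993723 on the plus strand, in 1 of the 6 windows of that gene, and capitals mark the glucocorticoid response element. A match describes the letters only, and their absence from this window says nothing of sites elsewhere.
Per1: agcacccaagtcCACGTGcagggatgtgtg
Tef: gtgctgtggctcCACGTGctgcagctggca
Sgk1: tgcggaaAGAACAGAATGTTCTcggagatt

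Beside these stretches, Per1 and Tef were the clock output genes that were tested and not called, and Sgk1 was among the 3 glucocorticoid-responsive genes called higher.

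Genes close to Eppk1 were listed because a knockout allele can carry flanking sequence of another strain. Within 10 Mb of Eppk1 on chromosome 15, 87 genes were tested in members, and 5 (5.75%) were called higher and 9 (10.3%) lower. Among all 6081 genes tested in members, 6.59% were called higher and 5.18% lower. Near Eppk1 the log2 ratios had their median at 0.02, against 0.05 for all tested genes. Srebf2, Fbln1 and Ly6a were among the called genes near Eppk1. So was Ly6e, a surface protein gene picked with its value in view, at 1299 and 628 CPM (-1.05). The part of flanking sequence in these values was not tested.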

How the data were processed

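The authors deposited 1 filtered matrix of UMI counts per library. Per the submitters' processing notes and the file header these were made with Cell Ranger 8.0.1 and mm10 (GRCm38), and the count of each gene sums its probes. The matrices held 9179 wildtype and 8811 knockout cells and 19059 genes, and the cells that passed the filter held 60671929 and 52743301 UMIs. Genes encoded by mitochondria served the filter and were then removed. Members and gene lists were chosen with earlier results of these data known.

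Counts were summed over members per library and divided by total UMIs (CPM). Ratios used 0.5 added UMI with exact conditional binomial 95% intervals; a genotype call needed a log2 ratio of at least 0.5 and an interval excluding 0, over genes with at least 100 UMIs. Comparisons with other fibroblasts needed 50 UMIs and a log2 ratio of 1 in both libraries. Shares have Clopper-Pearson intervals. The sums were tested on simulated data. Some genes of the lists are not reported here by name. No significance test and no doublet caller was run. The 2 libraries share 1211 droplet barcodes over all cells. Of the members, 15 wildtype and 57 knockout cells carried such a barcode, and no barcode had a member in both libraries.

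Named genes were the rule genes, Eppk1, the 10 highest and 10 lowest called genes detected in at least 25% of members, the 15 highest and 10 lowest against other fibroblasts with the same detection limit (in members for the higher, in other fibroblasts for the lower) in both libraries, and in each of 39 lists the called and most abundant genes. Alternatives were thinning to 2000 UMIs, other gates, filters and scalings (edgeR 4.0.16 TMM in R 4.3.3), and leaving out mixed cells. Python 3.11.15, numpy 2.4.6, pandas 2.3.3, scipy 1.17.1 and matplotlib 3.10.9 were used. Coordinates are from GENCODE on GRCm38 and stretches before gene starts from RefSeq.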

Additional observations from a re-analysis of the deposited data

Results flagged for a closer look

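Of 401 genes called higher and 315 called lower in knockout members, 93 and 137 were also called so in the other gated fibroblasts. Another 12 and 4 were called in the opposite direction there. The share of all genes called in the other fibroblasts is not given here, so nothing is read from these counts. The 5 genes described here belong to the lists or the naming rule, and for each of them the difference was not tested. Sfrp2, a secreted Wnt modulator, had a log2 ratio of knockout over wildtype of -1.77 in members and 0.75 in the other fibroblasts as a whole, but in the Tnmd group among them it stood lower in the knockout library, at 491 and 12.5 CPM. Il33, an alarmin of the interleukin 1 family, had -0.83 and 1.73, and 1 wildtype member held 36.5% of its UMIs, and its value in members turned to 0.10 after thinning. The neutrophil chemokine gene Cxcl2 had 0.71 and -1.35, with 27.5% of the knockout UMIs in 1 member, and its value in members turned to -0.41 with at least 2 UMIs of Angpt4, C7 and Adamtsl2 and to -0.27 with a gate of 1%. Lif, a cytokine of the interleukin 6 family, had 0.80 and -0.57. Aldh3a1 had 0.62 and -0.55, with 51.5% of the wildtype UMIs in 1 member.

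Cells below the collagen and decorin gate also met the rule on Angpt4, Myoc, C7 and Adamtsl2, 85 in the wildtype library and 107 in the knockout library, and entered no comparison. In 59 and 68 of them the gate genes made up less than 0.2% of UMIs. The genes named here were chosen after their values were seen. Those cells had Myoc at 1387 and 2134 CPM together with the basal keratin genes Krt15 (11751 and 13813 CPM) and Krt5 (6121 and 8277 CPM), and the hair follicle stem cell genes Lhx2 (737 and 993 CPM) and Lgr5 (311 and 285 CPM). C7 and Adamtsl2 had no UMI in them. In the other 26 and 39 cells, between 0.2% and 2%, Myoc stood at 3112 and 4706 CPM, Gpx3 at 25655 and 16005 CPM and C7 at 160 and 191 CPM.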

How the results depend on the processing

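No paired analysis was possible because each genotype had 1 library. Of 76 alternative values of the counts and shares, 59 stayed close to the reported value. With each cell thinned to 2000 UMIs before members were chosen, 113 wildtype and 275 knockout members were left, and 1392 instead of 6081 genes were tested. Of these, 99 genes were called higher and 106 lower in knockout members. Against other fibroblasts, 71 genes were higher and 109 lower in members. With a gate of 5%, which left 40 and 95 members, their shares of the gate were 4.01% and 7.72%, with 160 genes called higher and 139 lower of 1416 tested. With no minimum count the calls were 717 and 639, and against other fibroblasts 852 and 483, and with detection in 25% of the members of a library the latter were 95 and 21. In members with at least 2 UMIs of Angpt4, C7 and Adamtsl2, chosen after seeing the data like the gate of 1% and leaving out the cell richest in a gene, the shares were 5.48% and 5.74%, and 402 genes were lower than in other fibroblasts.

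Log2 ratios of knockout over wildtype that reversed are given here for genes called at first, and the cause was not tested. Thinned: Acta1 0.30, Vegfb -0.31, Tgfb3 -0.00661, Pappa2 0.26, Il33 0.10 and Pdk4 0.37. Gate of 5%: Sprr1a 0.18, Krt77 0.26, Sfn 1.34, Lgals7 0.18, Perp 0.28, Dsp 1.27, Ly6d 0.0748, Angptl7 -1.53, Pappa2 0.68, Ccl8 1.59, Fdps 0.0854, Npas2 -0.22 and Cebpa 0.63. Without mixed cells: Mrc1 1.72, Tnnt3 0.12, Acta1 0.87 and Ccl8 0.19. At least 2 other UMIs: Mrc1 2.86, Tnnt3 0.29, Acta1 0.87, Dkk2 -0.0157 and Cxcl2 -0.41. Gate of 1%: Krt77 0.0187 and Cxcl2 -0.27. Without the cell richest in the gene: Mrc1 2.25, Tnnt3 0.0103 and Acta1 0.43. Of the other single-gene and list values, 429 were counted as moved and 2303 as not moved. These include genes not called at first and list medians, for which a change of sign was not counted as a reversal.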
